A study of Drosophila melanogaster with 21 samples.

Results

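The Bomanins are short secreted peptides of Drosophila that fat body cells release into the hemolymph. Their genes are switched on by Toll signalling, in which the cytokine Spatzle activates the receptor Toll and frees the transcription factors Dif and Dorsal from the inhibitor Cactus. Flies that lack the main Bomanin cluster survive fungal and Gram-positive bacterial infection poorly. Short Bomanins hold little more than the family's motif, Tailed Bomanins carry the motif with a tail behind it, and Bicipital Bomanins carry a pair of motifs joined by a linker.

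The RNA of 10 Bomanin genes was followed in adult heads: BomS1, BomS2, BomS3 and BomS5 of the Short form, BomT1, BomT2 and BomT3 of the Tailed form, and BomBc1, BomBc2 and BomBc3 of the Bicipital form. They were found by symbol, and all 10 had a row among the 17559 genes listed in each table. The family was chosen by its log2 folds in these same tables, without a set threshold. All of its values below are therefore a description, and no test of the family is drawn from them. The annotation holds 12 Bomanin genes, and the further Short genes BomS4 and BomS6 are given beside the 10.

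The heads came from control flies of the w1118 stock and from flies given as a crtc ko, which lack the CREB coactivator Crtc. They were fed at will or fasted for 16 hours, and all flies were 3 to 5 days old. Libraries of polyadenylated RNA numbered 3 for fed and 2 for fasted heads in each genotype. The series holds 11 further samples, from bodies and from heads of CREB or Sik2 mutants, which were not analysed here. The labels do not give how the knockout was made, its driver or its backcrossing, or the sex of the flies. Each genotype is 1 stock, so the knockout and any other difference between the stocks cannot be told apart.

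The files hold comparisons and no value per library, so neither the value in each library nor the overlap of groups can be shown. Each comparison gives a base mean, the normalized count averaged over its libraries, and a log2 fold with its standard error (SE). The folds carry the shrinkage towards 0 that the form of their SEs shows. They thus understate the change of genes with few reads, and also of some with many, such as BomS2. A gene was called where the authors' adjusted p was under 0.05. In the labels, 1 of the 3 fed libraries of each genotype is listed among another set of samples, which has no fasted library. Differences of that set and of feeding are thus partly mixed in the fasting comparisons, where 2 fed and 2 fasted libraries of each genotype come from other sets, while fed heads of both genotypes each have 1 library of it. Whether replicates are separate groups of flies is not said in the labels, so the SEs may measure technical spread only.

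Crtc (FBgn0036746, chromosome 3L, 17659818 to 17669234) stood at a log2 fold of -4.48 ± 0.26 in fed and -4.88 ± 0.32 in fasted knockout heads by the authors' deposited tables, as the genotype labels say. The eye pigment gene w was lower in knockout heads too, at -2.42 ± 0.27 when fed by the authors' deposited table, so the stocks differ in at least this further gene. The w1118 allele named for the controls is a mutation of w itself, yet the base mean of w was 80.1 in the control and 4.94 in the knockout fasting table by the authors' deposited tables. That sits oddly with the label, and the eye colour or w allele of the knockout stock is not given. The neuron markers had summed levels of 8731 to 11519 normalized counts per 1000000 in the 4 groups, with 0 of 9 called by DESeq2 in any comparison and 0 to 1 at an unadjusted p under 0.05. Neuronal RNA was thus abundant, as the label of a head requires.

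Position was read from the Ensembl release 115 annotation of assembly BDGP6.54, since the tables hold no coordinates. On chromosome 2R, 10 Bomanin genes lie within 9237 bases, from 18381393 to 18390629, and 8 of them are members. In order along the chromosome these are BomT1 (18381393 to 18381844, minus strand), BomBc1 (18382704 to 18383235, minus), BomS1 (18383949 to 18384378, plus) and BomS4 (18384567 to 18384911, plus). BomBc2 (18384824 to 18385589, minus), BomS2 (18386602 to 18387030, plus) and BomS3 (18387895 to 18388734, plus) follow. BomT2 (18388995 to 18389443, plus), BomS5 (18389959 to 18390242, plus) and BomS6 (18390353 to 18390629, minus) end the row. The other 2 members lie side by side on chromosome 3R, BomT3 at 22085374 to 22086397 on the minus strand and BomBc3 at 22087075 to 22088501 on the plus strand.

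All 10 members are protein-coding. The annotated coding sequences encode precursors of 45 residues for BomS1 and BomS2, 39 for BomS3 and 40 for BomS5. The Tailed precursors have 63 residues for BomT1, 76 for BomT2 and 117 for BomT3, and the Bicipital ones 117 for BomBc1, 154 for BomBc2 and 98 for BomBc3. BomBc2 and BomS4 overlap by 88 bases on opposite strands, so reads of one may have counted for the other, as the sources used here do not say whether strand was used. Reads shared between similar family members may likewise have been split, and each member's value carries that uncertainty.

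In fed heads all 10 Bomanin genes were lower in the knockout, from 1.66-fold for BomT3 to 7.30-fold for BomBc1. The authors' deposited table called 10 of 10 lower, where 2.49% of all 10285 genes tested were called lower and 2.27% higher. The choice of the family used this comparison, so nothing is read from these counts. Their median log2 fold was -1.47, against 0.00 (0.000858) over all genes tested by the authors' deposited table. By fold, the members held ranks 9 to 218 from the bottom among those 10285 genes by the authors' deposited table.

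BomBc1 had the lowest fold of the family in fed knockout heads, -2.87 ± 0.24, or 7.30-fold lower, by the authors' deposited table. The other Bicipital genes stood at -1.62 ± 0.22 for BomBc3 and -1.45 ± 0.25 for BomBc2 by the authors' deposited table. Bicipital folds thus spanned more than a log2 unit, and each interval of 95% stayed below 0.

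The Short genes BomS1 and BomS2, whose mature peptides are among the abundant immune-induced molecules of the hemolymph, had folds of -2.01 ± 0.19 and -2.01 ± 0.26 in fed heads by the authors' deposited table. With the shrinkage taken out these came to -2.31 ± 0.22 and -2.78 ± 0.36, so their equal values rest on it. Whether the 2 folds differ was not tested. BomS3 stood at -1.49 ± 0.20 and BomS5 at -1.08 ± 0.17 by the authors' deposited table. Among the Tailed genes the authors' deposited table gave -1.39 ± 0.25 for BomT2, -0.99 ± 0.29 for BomT1 and -0.73 ± 0.19 for BomT3. BomT3 on 3R was the member with the smallest change and BomT1 the one nearest the call threshold, at an adjusted p of 0.0155 by the authors' deposited table. Without the shrinkage BomT1 came to -1.90 ± 0.55 and BomT2 to -1.87 ± 0.34, so their order rests on it too and is not settled. Outside the 10, BomS4 was called lower at -1.38 ± 0.20, while BomS6 was not called at -0.52 ± 0.20 (adjusted p = 0.146, DESeq2) by the authors' deposited table.

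**Figure D1:**
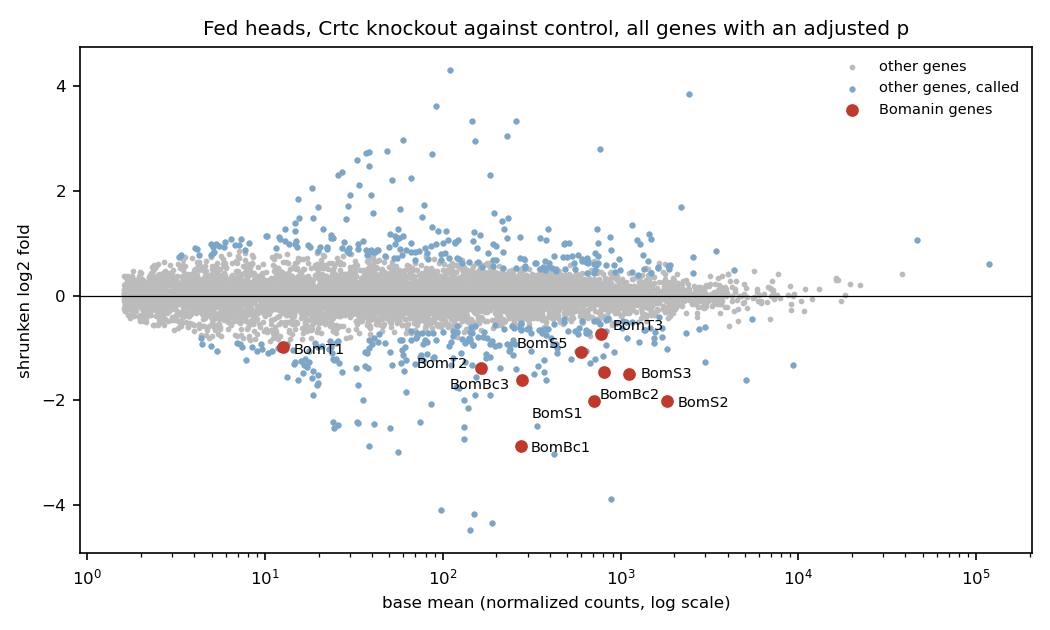
Shrunken log2 fold of Crtc knockout against control in fed heads (vertical axis) against the base mean in normalized counts (horizontal log axis) for the 10285 genes that the authors' deposited table tested, with the 10 Bomanin genes in red and other called genes in blue. All 10 lie between -0.73 and -2.87, at the lower edge of the cloud, with BomT1 the only member near a base mean of 10.

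The fasting folds of most of the family lay on opposite sides of 0 in the genotypes. In control heads 8 of the 10 folds lay below 0 and 2 were called lower, while in knockout heads 10 of 10 lay above 0 and 5 were called higher. These comparisons share no library. The authors' deposited tables called 1.65% of 9361 genes lower and 2.19% higher in control fasting, and 2.76% of 10037 genes higher and 0.498% lower in knockout fasting. The family was chosen for this contrast too, and nothing is read from its counts. The median fold of the members was -0.34 in control and 0.99 in knockout heads, against -0.01 and -0.02 over all genes tested by the authors' deposited tables.

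BomS1 fell in fasted control heads, at -0.74 ± 0.18, and rose in fasted knockout heads by 1.18 ± 0.22 by the authors' deposited tables. BomBc2 did likewise, with -0.52 ± 0.15 in control and 1.02 ± 0.28 in knockout heads by the authors' deposited tables. The BomBc2 calls lie just inside the threshold, with adjusted p of 0.024 and 0.0121 by the authors' deposited tables. BomS2 rose by 1.44 ± 0.28 and BomS3 by 1.24 ± 0.24 in knockout heads by the authors' deposited table. In control heads these were not called, at -0.33 ± 0.22 and -0.40 ± 0.15 by the authors' deposited table.

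BomT2 had the largest rise of the family on fasting, 1.97 ± 0.26 in knockout heads or 3.92-fold, and -0.13 ± 0.23 in control heads by the authors' deposited tables. BomBc1 was not called in either genotype. It stood at -0.50 ± 0.17 (adjusted p = 0.0948) in control and 0.97 ± 0.31 (adjusted p = 0.0564) in knockout heads by the authors' deposited DESeq2 tables. BomT1, with base means of 21.1 and 5.76, had folds of -0.36 ± 0.28 and 0.26 ± 0.29 by the authors' deposited tables.

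BomS5 had fasting folds near 0 in both genotypes, at -0.02 ± 0.18 in control and 0.14 ± 0.19 in knockout heads by the authors' deposited tables. The 3R pair lay above 0 in both genotypes. BomT3 stood at 0.30 ± 0.18 in control and 0.56 ± 0.19 in knockout heads, and BomBc3 at 0.08 ± 0.23 and 0.67 ± 0.24, none of them called by the authors' deposited tables. The 8 members on 2R had control fasting folds from -0.74 to -0.02 by the authors' deposited table, all below 0.

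**Figure D2:**
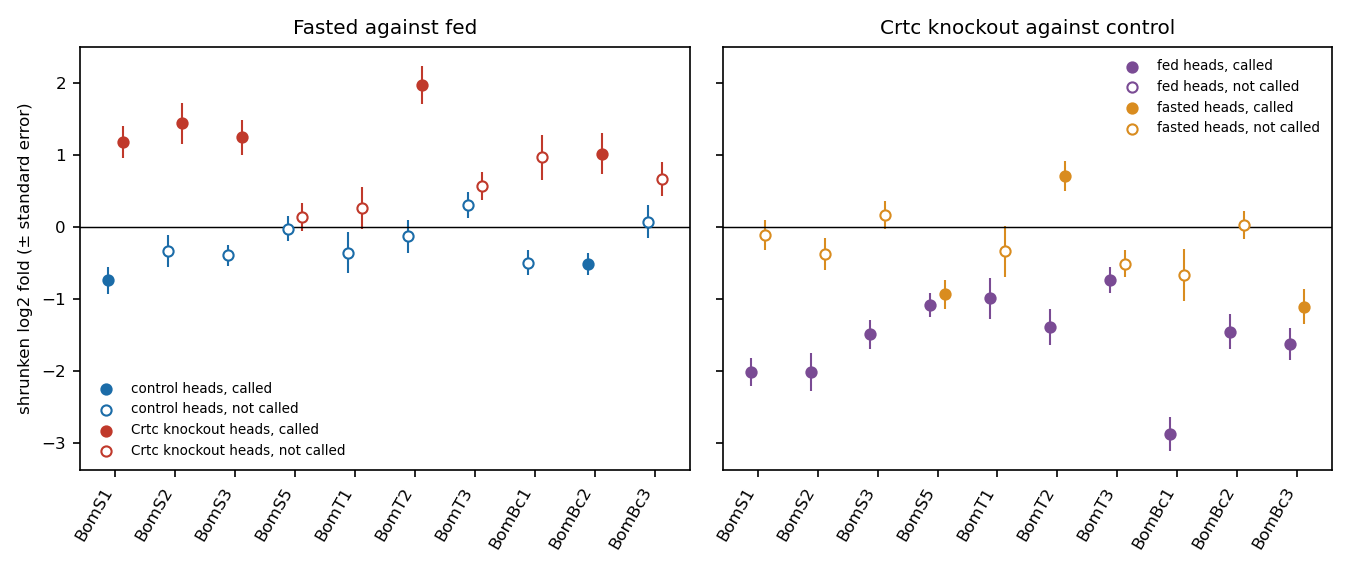
Shrunken log2 folds of the 10 Bomanin genes with standard errors, from the authors' deposited tables: fasted against fed in control (blue) and Crtc knockout heads (red) on the left, and knockout against control in fed (purple) and fasted heads (orange) on the right, with filled points called at an adjusted p under 0.05. In fed heads 10 of 10 points are filled and below 0, while in fasted heads 3 are filled, with BomT2 above 0 and BomS5 and BomBc3 below.

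In fasted heads the family's genotype folds lay on both sides of 0. The authors' deposited table called 2 of 10 members lower and 1 higher in the knockout, where 1.97% of 9917 genes were called lower and 3.43% higher. The median fold was -0.36, against -0.02 over all genes tested by the authors' deposited table, and member ranks ran from 106 to 9503 from the bottom.

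BomBc3 and BomS5 stayed lower in fasted knockout heads, at -1.10 ± 0.24 and -0.93 ± 0.20 by the authors' deposited table. BomT2 was higher by 0.71 ± 0.21 by the authors' deposited table, at an adjusted p of 0.0208 (DESeq2). BomS1 at -0.11 ± 0.21, BomS3 at 0.17 ± 0.20 and BomBc2 at 0.03 ± 0.20 had intervals that held 0 by the authors' deposited table. For BomS1 the 95% interval ran from -0.51 to 0.30, and for BomBc2 from -0.37 to 0.42, with 2 libraries a group. Differences within these bounds thus remain possible, and the bounds are not a limit of detection. BomS2 stood at -0.37 ± 0.22, BomT1 at -0.34 ± 0.36, BomT3 at -0.51 ± 0.19 and BomBc1 at -0.67 ± 0.36, none of them called by the authors' deposited table. Outside the 10, BomS4 was lower at -0.85 ± 0.23 and BomS6 was not called at -0.39 ± 0.22 by the authors' deposited table.

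Levels in the 4 groups were worked out from each table's base mean, fold and library numbers, relative to the table's summed base means, in normalized counts per 1000000. Every group enters a fasting and a genotype comparison, so each level was had by 2 routes. The routes differed by a factor of 0.917 to 1.25 for 8 members, and by 0.749 to 1.80 once BomT1 and BomBc1 were counted. The means of both routes are given below. The folds used were the shrunken ones, so gaps between groups are understated in these levels and their sums. Without the shrinkage the fed knockout fold of BomBc1 was -3.67 in place of -2.87. That of BomS2 was -2.78 in place of -2.01.

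Fed knockout heads had the lowest level of the 4 groups for 10 of 10 members. The summed level of the family was 2912 in fed and 2399 in fasted control heads, and 900.4 in fed and 1855 in fasted knockout heads. BomS1 stood at 333 in fed control, 195 in fasted control, 76.9 in fed knockout and 169 in fasted knockout heads. In 6 members, BomS1, BomS2, BomS5, BomT1, BomBc1 and BomBc2, the order from the bottom was fed knockout, fasted knockout, fasted control and fed control. Of these, BomS1, BomS2, BomT1, BomBc1 and BomBc2 had fasted groups whose fold has an interval that holds 0, so the middle of their order is not settled. The fasting intervals of BomS5 and BomT1 hold 0 in both genotypes, so neither the bottom nor the top of their order is settled. That of BomS2 in control heads holds 0 too, so the top of its order is not settled.

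BomS2 was the most abundant member in every group, at 875 in fed control, 697 in fasted control, 188 in fed knockout and 486 in fasted knockout heads. It made up 30.0% of the family's summed level in fed control heads and 20.9% in fed knockout heads. BomS3 followed, at 482, 369, 165 and 396 in the same order of groups. BomT2 went from 26.2 in fed to 107 in fasted knockout heads, above the 71.6 of fed control heads and the 68.2 of fasted control heads. No other member had its highest level in fasted knockout heads.

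BomBc1 went from 143 in fed and 92.8 in fasted control heads to 16.8 in fed and 40.0 in fasted knockout heads. Its fasted knockout level was 28.5 by the fasting table and 51.5 by the genotype table, the widest gap among the 40 levels. BomBc2 stood at 354, 252, 118 and 239 in fed control, fasted control, fed knockout and fasted knockout heads. BomBc3 stood at 127, 135, 36.7 and 57.4, and BomT3 at 284, 354, 164 and 242, both with their highest level in fasted control heads. BomS5 kept 238 and 233 in control heads and 107 and 116 in knockout heads, when fed and fasted. BomT1 was the least abundant, at 5.25, 3.87, 1.96 and 2.21.

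**Figure D3:**
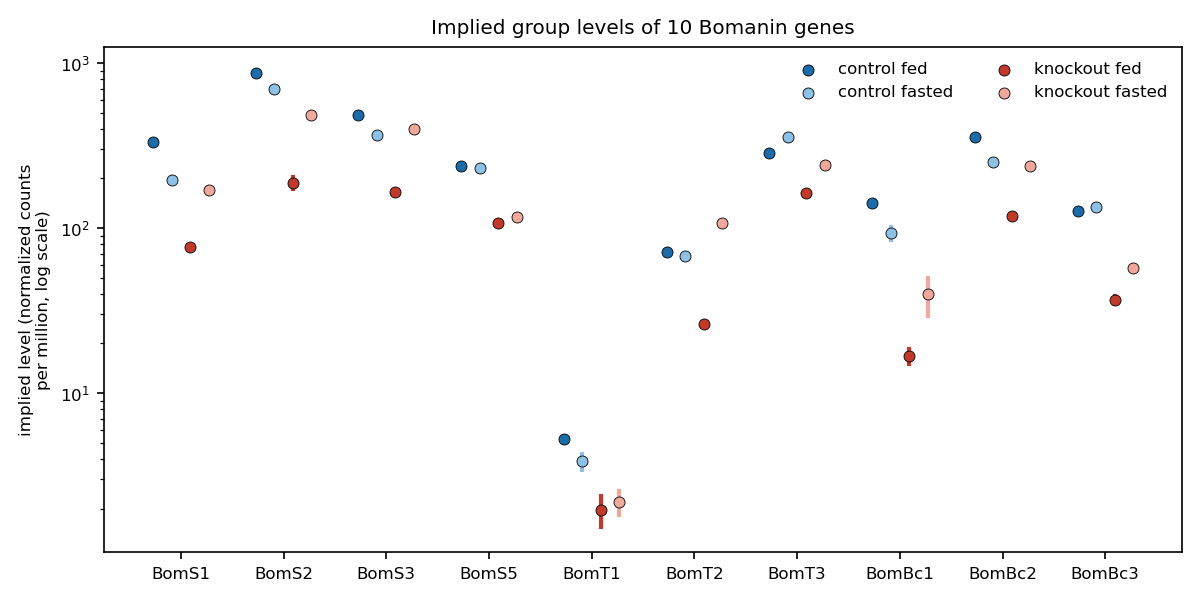
Implied level of each Bomanin gene (normalized counts per 1000000, log axis) in fed and fasted control heads (blue) and fed and fasted Crtc knockout heads (red), with points at the mean of both routes and vertical lines joining the routes. Fed knockout heads (dark red) are lowest for 10 of 10 genes, and only BomT2 is highest in fasted knockout heads, at 107.

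Levels of different genes can be set side by side per length. Per kilobase of annotated exon, the implied level (normalized counts per 1000000) in fed control heads was 2383 for BomS2, 1091 for BomS5, 921 for BomS1, 627 for BomS3 and 498 for BomBc2. BomT3 had 432, BomBc1 305, BomT2 187, BomBc3 97.3 and BomT1 13.5 on the same scale in those heads. The Short genes thus held 4 of the top 5 places by this scale. Very short transcripts lose fragments in library preparation, and the size of that loss in these libraries is not given.

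The response to fasting was also compared between the genotypes, as the fasting fold of knockout heads less that of control heads on the log2 scale, with an SE from both. All 10 differences were above 0, and those of the 9 members whose base mean reached 10 in each fasting table had a median of 1.53, against -0.01 over all 8474 genes. The choice of the family used this contrast, so the counts that follow are no test of it and nothing is read from them. With a two-sided normal reference adjusted over those genes, 6 of 9 members were past the threshold in the positive direction, where 0.696% of genes were, and 0.106% in the negative one. Referred to a t distribution of 6 degrees of freedom, 0 of 9 were past it, at a smallest adjusted p of 0.643 among members, and 6 of 9 had an unadjusted p under 0.05. In that setting 0 of the 8474 genes were past it and 190 had an unadjusted p under 0.05.

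The difference was 2.10 ± 0.34 for BomT2, 1.92 ± 0.29 for BomS1, 1.77 ± 0.36 for BomS2 and 1.64 ± 0.28 for BomS3. It was 1.53 ± 0.32 for BomBc2 and 1.47 ± 0.36 for BomBc1. Smaller differences were those of BomBc3 at 0.59 ± 0.33, BomT3 at 0.26 ± 0.27 and BomS5 at 0.16 ± 0.26. BomT1 was under the minimum and stood at 0.61 ± 0.41. Taken from the genotype tables instead, as the fasted minus the fed fold, BomBc1 came to 2.20 ± 0.43. The next largest move was that of BomS2, to 1.64 ± 0.34.

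Along the 2R cluster the 6 genes with a difference of at least 1.47 form an interrupted run from BomBc1 to BomT2. BomS4, inside that run and overlapping BomBc2, differed by 0.54 ± 0.30. At the far end BomS5 and BomS6 stood near 0, at 0.16 ± 0.26 and 0.11 ± 0.30. In fed heads, by contrast, BomS5 and BomS4 were called lower in the knockout and BomS6 was not, by the authors' deposited table.

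**Figure D4:**
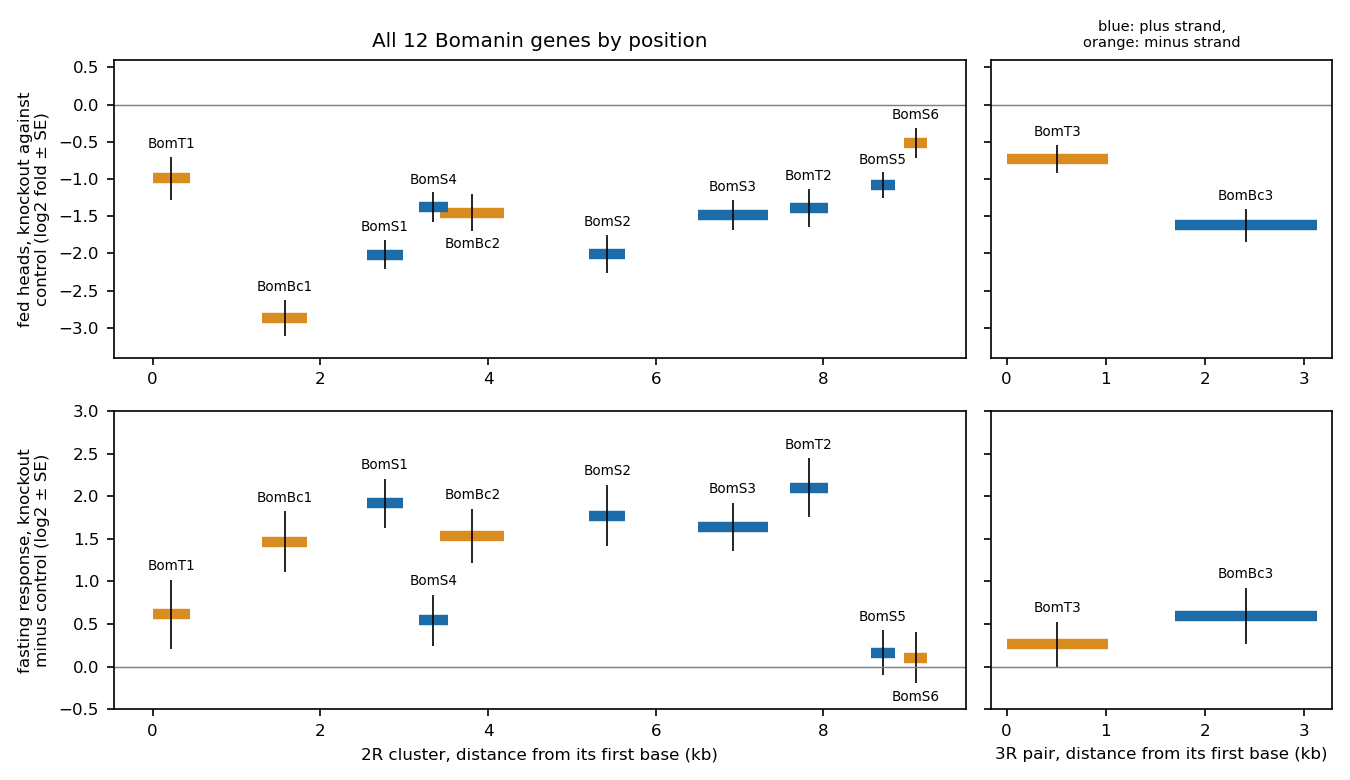
The 12 annotated Bomanin genes as bars at their distance in kilobases from the first base of the 2R cluster (left) and of the 3R pair (right), drawn at the fed knockout against control log2 fold (top) or the knockout minus control fasting response (bottom) with standard errors, blue for the plus and orange for the minus strand. BomT2 at 2.10 and BomS5 at 0.16 are neighbours in the bottom row, while in the top row they lie at -1.39 and -1.08.

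Genes around the Bomanins were read as a local comparison. The nearest annotated gene past BomS6, the chitinase-like growth factor gene Idgf5 at 3037 bases, had a fed knockout fold of -0.60 ± 0.23 that was not called by the authors' deposited table (adjusted p = 0.119, DESeq2). Within 100 kilobases to each side of the 2R cluster, 3 of 19 tested genes were called lower in fed knockout heads and 0 higher by the authors' deposited table. These 3 were the glutathione S-transferase genes GstE1 at -1.10 ± 0.23, GstE4 at -1.02 ± 0.29 and GstE8 at -0.86 ± 0.27 by the authors' deposited table. In knockout fasting 2 of 19 rose, GstE1 by 0.80 ± 0.24 and GstE3 by 1.25 ± 0.21, by the authors' deposited table. The median fed knockout fold of the 19 was -0.21 by the authors' deposited table. In fasted knockout against control heads 1 of 20 tested genes was higher and 0 lower, GstE3 at 1.22 ± 0.23 by the authors' deposited table. Around the 3R pair, 0 of 15 tested genes were called in fed or in fasted genotype comparisons by the authors' deposited tables, with a fed median of 0.05. In knockout fasting 1 of 15 rose there and 0 fell, CG42390 by 0.61 ± 0.18 by the authors' deposited table.

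Genes outside the family were ranked by the distance of their log2 folds in the 4 comparisons from the median Bomanin folds, among the 8430 genes whose base mean reached 10 in all 4 tables. The nearest were CG42846 at a distance of 0.47, GstD2 at 0.51, Ugt35A1 at 0.55, GstE1 at 0.57 and CG4476 at 0.60 log2 units. GstD2 and GstE1 encode glutathione S-transferases and Ugt35A1 a UDP-glycosyltransferase. On the same measure the members themselves lay at 0.42 for BomBc2 up to 1.46 for BomT2, with BomT1 left out for its base mean. The 5 genes were picked as the nearest, so their distances are not set against those of the family. CG42846, for example, had -1.32 ± 0.22 in fed and -0.47 ± 0.25 in fasted knockout against control heads by the authors' deposited tables.

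Of 8 other effector genes of Toll signalling listed and tested, 3 were called lower in fed knockout heads and 0 higher, with a median fold of -0.61 by the authors' deposited table. Dso1 and Dso2, which encode the antifungal Daisho peptides, stood at -1.02 ± 0.26 and -1.28 ± 0.20 by the authors' deposited table (adjusted p = 0.00316 and 1.65e-08, DESeq2). SPH93, a serine protease homologue gene, stood at -2.44 ± 0.29 by the authors' deposited table (adjusted p = 3.33e-15, DESeq2). The metchnikowin gene Mtk was not called, at -0.78 ± 0.29 by the authors' deposited table (adjusted p = 0.113, DESeq2).

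In knockout fasting, where 5 Bomanin genes rose, the difference from the other Toll effectors was not tested. Of the effectors 0 of 7 were called, and 0 had an unadjusted p under 0.05, by the authors' deposited DESeq2 table. Dso2 fell in fasted control heads, at -1.12 ± 0.21, and stood at -0.08 ± 0.20 in fasted knockout heads by the authors' deposited tables. SPH93 stood at -2.52 ± 0.34 in fasted knockout against control heads (adjusted p = 2.53e-11, DESeq2) by the authors' deposited table. It was the 1 of 7 effectors called there, with a list median of -0.32 by the authors' deposited table.

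The genes that carry the Toll signal from receptor to nucleus were tested at 13 members. In fed knockout heads 1 was higher and 0 lower, near the 2.27% and 2.49% of all genes, with a median of -0.01 by the authors' deposited table. The 1 was dl, which encodes Dorsal, at 0.52 ± 0.16 by the authors' deposited table (adjusted p = 0.0342, DESeq2). In fasted knockout against control heads 0 of 13 were called, with a median of 0.13, and in control fasting 0 of 13, with a median of 0.07, by the authors' deposited tables. In knockout fasting 1 of 13 rose, the inhibitor gene cact by 0.63 ± 0.18 by the authors' deposited table (adjusted p = 0.0206, DESeq2). At an unadjusted p under 0.05 by DESeq2 stood 2 of 13 in the fasted genotype comparison and 1 of 13 in control fasting by the authors' deposited tables.

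Upstream of Toll, 13 genes of recognition and serine proteases were tested. In fed knockout heads 1 of 13 was called, the secreted recognition protein gene PGRP-SD at -1.45 ± 0.22 by the authors' deposited table (adjusted p = 3.36e-09, DESeq2). It was also lower in fasted knockout against control heads, at -1.80 ± 0.28, where GNBP3, a sensor of fungal glucans, was higher by 0.72 ± 0.23 by the authors' deposited table. On fasting PGRP-SD fell in both genotypes, at -0.85 ± 0.18 in control and -1.01 ± 0.28 in knockout heads, and the protease gene modSP rose by 0.61 ± 0.19 and 0.75 ± 0.22 by the authors' deposited tables. GNBP2 rose by 0.67 ± 0.21 in control heads by the authors' deposited table.

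**Figure D5:**
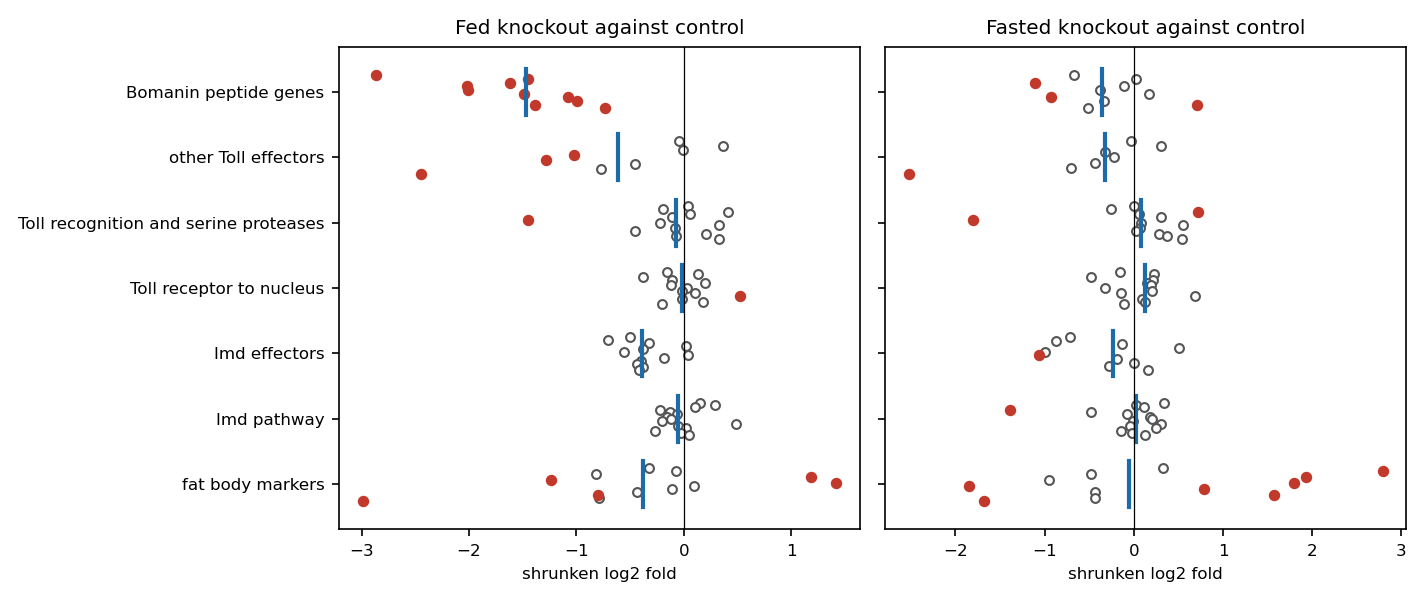
Shrunken log2 folds of Crtc knockout against control in fed (left) and fasted heads (right) for the Bomanin genes and 6 gene lists, from the authors' deposited tables, with 1 point per gene, red where called, and a blue bar at each list's median. The Bomanin median is -1.47 in fed and -0.36 in fasted heads, and the receptor to nucleus list has medians of -0.01 and 0.13.

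Bomanin RNA in a head may come from its fat body, and in bulk RNA fewer cells of a type and less RNA per cell cannot be told apart. In fed heads the 14 listed fat body markers had a summed level of 4046 in the knockout and 4048 in the control, mostly from apolpp, a lipoprotein gene at -0.11 ± 0.21 by the authors' deposited table. The median fold of the 12 markers tested was -0.38, the same sign as that of the Bomanins, with 9 below 0, and 2 were called higher and 3 lower by the authors' deposited table. Lsp2 and Lsp1beta, larval storage protein genes also read in adult fat body, were higher there by 1.42 ± 0.25 and 1.18 ± 0.25 by the authors' deposited table. The insulin target gene tobi, Lsp1gamma and fit were lower, at -2.99 ± 0.26, -1.24 ± 0.28 and -0.80 ± 0.24 by the authors' deposited table. Their part in the lower Bomanin folds of fed heads was not tested.

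In control fasting 6 of 12 fat body markers fell and 2 rose, and their summed level went from 3960 to 2284 by the authors' deposited table. In knockout fasting 3 of 11 fell and 1 rose, with a summed level of 3962 in fed and 3402 in fasted heads by the authors' deposited table. In fasted heads 5 of 12 were higher in the knockout and 2 lower, with summed levels of 3323 and 2147 by the authors' deposited table. These sums too are mostly apolpp, and Fbp2 was listed at 0 in both tables with control fed heads. Whether the fat body share of the libraries has a part in the Bomanin folds of the fasting comparisons was not tested.

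Muscle markers differed between the same groups. In control fasting 4 of 10 fell and 0 rose, and in fasted heads 9 of 10 were higher in the knockout, with summed levels of 4926 against 3024 by the authors' deposited tables. In knockout fasting 0 of 10 were called and 0 had an unadjusted p under 0.05 by DESeq2, at summed levels of 5034 in fasted and 5114 in fed heads, and in fed heads 2 of 10 were higher in the knockout, at 5199 against 4705 by the authors' deposited tables. Their part in the Bomanin folds was not tested.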

How the data were processed

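Polyadenylated RNA of heads was sequenced from 10 libraries, grouped by genotype and feeding as the labels give them. DESeq2, STAR, TopHat2 and Cuffdiff are listed in the submitters' processing notes, as are the builds dm3 and dm6, without versions or roles. The aligner and build behind the tables, and any counting by strand, are not given in the sources used here. The numbers of libraries in the tables' names differ from those in the labels, and were taken as a renumbering without the CREB mutant heads.

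Per the file headers, the authors deposited a base mean (a signal in normalized counts), a log2 fold with its standard error, a Wald score, a p-value and an adjusted p-value per gene in each of 4 tables. No file gives a value per library, so library depths are unknown. In all, base means came to 3465010 to 4405826 normalized counts. FlyBase identifiers were paired with symbols from a name table, which matched 17253 of 17559.

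Levels, differences and adjustments were computed with Python 3.11.15, pandas 2.3.3 and scipy 1.17.1. The difference test was tried on simulated data first. The members and all gene lists (Toll recognition, Toll receptor to nucleus, other Toll effectors, Imd pathway, Imd effectors, and markers of fat body, hemocytes, neurons, glia and muscle) were chosen with earlier results of these data known. Drs, BaraA2 and bbd of the effector list had no row under their identifiers and are not analysed here. All members were named; a listed gene was named where called, at most 3 per list and comparison, and Mtk and the uncalled neighbours were named after their values were seen. No sequence is shown.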

Additional observations from a re-analysis of the deposited data

Results flagged for a closer look

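The difference in fasting response, knockout minus control, was past the threshold for 6 Bomanin genes with a two-sided normal reference adjusted over 8474 genes. Of all those genes 0.696% were past it in the positive and 0.106% in the negative direction. The family was chosen by folds of this same contrast, so this is a description and no test of it. Referred to t with 6 degrees of freedom, 0 of 9 members were past the threshold, and 6 of 9 had an unadjusted p under 0.05. Over all 8474 genes these counts were 0 and 190. The differences on the log2 scale were 2.10 for BomT2, 1.92 for BomS1, 1.77 for BomS2, 1.64 for BomS3, 1.53 for BomBc2 and 1.47 for BomBc1. A larger positive difference than that of BomT2 was held by 4 of the 8474 genes, which is a description too. With files that hold no value per library, no sample could be checked for lying far from the others.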

How the results depend on the processing

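At an adjusted p under 0.01 the Bomanin genes called lower in control fasting went from 2 to 1 and those higher in fasted knockout against control heads from 1 to 0. Under a t reference of 6 degrees of freedom, the members with a difference in fasting response past the threshold went from 6 to 0. That setting changes the reference of the p-value and no fold. With the shrinkage taken out, by way of the ceiling of the standard errors, the median Bomanin fold moved to 1.38 in knockout fasting and -1.90 in fed knockout against control heads, and the median difference to 1.96. BomBc1 moved most among the tested differences, from 1.47 to 2.25, and its knockout fasting fold from 0.97 to 1.70. Taking out the shrinkage placed every gene on the well-counted side of that ceiling, a choice that an SE near the ceiling leaves uncertain. The SE of BomBc1 in knockout fasting was 0.3117 against a ceiling of 0.3149. That of BomT1 in fed knockout against control heads was 0.2876 against 0.2879. The unshrunk values of these 2 folds are thus uncertain. The other 38 values of counts and medians stayed within 1.5 times or 1 standard error. No tested difference changed sign, while the sign of a single fold could not change under any of these settings. BomBc1 in knockout fasting passed when the adjustment ran over genes whose base mean reached 10 (adjusted p = 0.0495, from the authors' DESeq2 p-values). No paired analysis was possible because the tables hold no value per library, and leaving out single replicates was not run for the same reason. The precision is limited by 2 fasted libraries a genotype and by the low counts of BomT1.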

Other observations

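Imd signalling, which answers mainly to Gram-negative bacteria, was read beside the Bomanins. Of 12 Imd effector genes 0 were called in fed knockout against control heads by the authors' DESeq2 run and 3 had an unadjusted p under 0.05, with a median fold of -0.39 and 10 below 0 by the authors' deposited table. Of 15 Imd pathway genes 0 were called there by DESeq2 and 1 had an unadjusted p under 0.05, with a median of -0.05 by the authors' deposited table. The shrunken folds may understate the change of the Imd effectors, since the routes to their summed level disagreed. In fed knockout heads it was 524 by the genotype and 270 by the fasting comparison. In fed control heads it was 697 and 712 by the same routes. On fasting, PGRP-SB1 fell in control heads, at -1.42 ± 0.23, and CecA1 and CecA2 fell in knockout heads, at -1.35 ± 0.31 and -1.16 ± 0.30, by the authors' deposited tables. Counts of CecA1 and CecA2 were low there, with base means of 13.9 and 7.32. Rel, the transcription factor of this pathway, rose on fasting by 0.81 ± 0.17 in control and 1.02 ± 0.18 in knockout heads by the authors' deposited tables. In fasted knockout against control heads PGRP-LB, which degrades peptidoglycan, was lower at -1.39 ± 0.32, and CecA2 at -1.06 ± 0.33, by the authors' deposited table. The base mean of CecA2 was only 7.40 in that comparison.

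Hemocyte markers had 3 of 10 higher and 0 lower in fed knockout heads and 3 of 9 higher in fasted ones by the authors' deposited tables. On fasting 3 of 10 fell in control and 1 of 10 in knockout heads by the authors' deposited tables. Glial markers had 1 of 8 called in fed knockout heads, alrm at -1.32 ± 0.18, and 0 of 8 in fasted ones, where 1 had an unadjusted p under 0.05, by the authors' deposited tables. On fasting 3 of 8 rose in knockout heads, led by alrm at 1.40 ± 0.22, and 1 rose and 1 fell in control heads, by the authors' deposited table.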
